A study of Mus musculus with 30 samples.

Results

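The unfolded protein response genes examined here were Hspa5, Hyou1, Hsp90b1, Sdf2l1, Dnajb9, Pdia4, Manf, Herpud1, Sel1l and Xbp1. They were listed by name, with earlier results of these data known. For each, the transcript cluster carrying that single gene symbol whose mean over the 30 arrays was highest was taken. Of the 10 genes, 8 had such a cluster, 1 each, among 30142 genes in all, and all 8 passed the filter on low signals that left 18091 genes. Pdia4, a disulfide isomerase, and Manf, a secreted factor of the endoplasmic reticulum, stood only on clusters that list several genes and were not analysed here.

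The unfolded protein response is the reaction of a cell to unfolded proteins in its endoplasmic reticulum, the compartment in which secreted and membrane proteins fold. The membrane sensors IRE1, PERK and ATF6 start it. IRE1 splices the Xbp1 transcript, PERK slows translation and raises ATF4, and ATF6 is cut to release a transcription factor. Together they raise transcripts of chaperones and of the machinery that carries misfolded proteins out for degradation. In the blastocyst, the trophectoderm and the primitive endoderm are epithelia that secrete and take up protein.

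RNA was measured in single mouse blastocysts of B6C3F1 x CD1 matings, on 1 Affymetrix array each. Zygotes were taken from the oviduct and all were first grown in KSOM(aa), a mouse embryo medium, until they had 2 cells. In 10 embryos the sister blastomeres were then parted, 1 growing singly in GM501 and its co-twin singly in SAGE 1-Step, both media for assisted reproduction, which gave 10 GM501 and 10 SAGE twin blastocysts. The 10 controls stayed undivided and grew singly in KSOM(aa), and every blastocyst was lysed at 4 days post coitum after 96 h of culture. The labels put twins at about 40 to 50 cells and controls at about 80. Medium, bisection and cell number therefore cannot be told apart in a comparison with controls, nor can fewer cells of a type from less RNA per cell. Mean signals are not compared between genes, since each cluster has its own probes.

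The median log2 signal of an array was 4.88 ± 0.24 among GM501 twins, 4.89 ± 0.23 among SAGE twins and 4.64 ± 0.029 for controls (SD, n = 10 each). Earlier work on these arrays set pairs 1 to 6 apart from pairs 7 to 10 by this median, at 5.01 ± 0.15 over 12 arrays against 4.69 ± 0.18 over 8, so that gap is built in. The SAGE twin of pair 8 had a median of 5.12, unlike the rest of its set. The labels name no batch, and no control array had a median above 4.69. Markers of the labelled blastocyst were present. All 6 trophectoderm and all 5 inner cell mass genes were measured, and their signals summed to means of 18.07, 17.94 and 18.56 (log2) and of 13.46, 12.79 and 14.30 in GM501, SAGE and control blastocysts. Primitive endoderm markers (3 of 5 kept) summed to between 10.55 and 12.71 in GM501, 10.69 and 12.26 in SAGE, and 11.37 and 12.25 in control blastocysts. Of 6 oviduct or cumulus and 5 blood or immune markers, 5 and 3 had a cluster of their own, and 2 each passed the filter. Foxj1 and the globin genes Hbb-bs and Hba-a1 had no such cluster and were not read. Signals summed over those with a cluster lay between 6.50 and 8.06 in every blastocyst.

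The response is known to act through short elements near the start of its target genes. ATF6 and XBP1 bind the endoplasmic reticulum stress element (ERSE), which is CCAAT and CCACG with 9 free bases between them, together with NF-Y at the CCAAT part. ERSE-II is ATTGG and CCACG with 1 free base between them. RefSeq start regions (GRCm38.p6, 250 bases before to 50 after the start) were matched for 8 of the 10 genes, among them Pdia4, and searched on both strands. Hyou1 and Manf had no entry. Of the 8 regions, 3 held a full element. ERSE stood in Hspa5 and Hsp90b1, against 0.137% of 27025 genes in all, and ERSE-II in Herpud1, against 0.0444%. Hsp90b1 held it at 2 places, 1 on each strand. The bases below lie before the start, written 5′ to 3′ along the gene, with the conserved letters of ERSE, the whole of ERSE-II, and the ATF4 core TGATGNAA (4.51% of genes, here on the reverse strand of Herpud1) in capitals. These 3 genes are shown because they hold the full elements.
Hspa5 (chr2:34771965-34772089, plus strand): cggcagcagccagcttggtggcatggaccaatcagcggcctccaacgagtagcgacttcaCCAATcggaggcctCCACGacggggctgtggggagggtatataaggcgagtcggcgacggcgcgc
Hsp90b1 (chr10:86705520-86705674, minus strand): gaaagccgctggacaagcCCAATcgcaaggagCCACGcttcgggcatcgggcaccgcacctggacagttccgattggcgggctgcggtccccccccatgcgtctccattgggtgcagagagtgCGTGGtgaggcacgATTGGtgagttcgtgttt
Herpud1 (chr8:94386304-94386428, plus strand): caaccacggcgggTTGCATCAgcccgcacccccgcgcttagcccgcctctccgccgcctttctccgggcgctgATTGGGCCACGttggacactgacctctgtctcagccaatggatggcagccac
The XBP1 core TGACGTGG (0.714% of genes) was found in 0 of the 8 regions. Neither ERSE nor ERSE-II was found in Sdf2l1, Dnajb9, Sel1l, Xbp1 or Pdia4. The 4 measured genes among these are shown beside the first 3, so that genes with and without a full element can be read together. In them the separate parts CCAAT (41.1% of genes) and CCACG (35.5% of genes), on either strand, are in capitals, and Xbp1 held neither.
Sdf2l1 (chr16:17132384-17132508, minus strand): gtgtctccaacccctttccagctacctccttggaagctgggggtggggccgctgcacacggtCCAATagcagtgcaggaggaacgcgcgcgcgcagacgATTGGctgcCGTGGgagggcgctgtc
Dnajb9 (chr12:44210069-44210193, minus strand): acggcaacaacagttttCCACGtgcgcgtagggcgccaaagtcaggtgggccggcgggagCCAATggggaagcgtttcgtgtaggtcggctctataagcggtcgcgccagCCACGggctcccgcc
Sel1l (chr12:91849158-91849357, minus strand): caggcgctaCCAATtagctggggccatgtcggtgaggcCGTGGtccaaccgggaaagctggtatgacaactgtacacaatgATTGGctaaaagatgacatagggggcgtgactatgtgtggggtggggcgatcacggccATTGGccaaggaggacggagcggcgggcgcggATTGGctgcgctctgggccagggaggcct
Xbp1 (chr11:5520516-5520640, plus strand): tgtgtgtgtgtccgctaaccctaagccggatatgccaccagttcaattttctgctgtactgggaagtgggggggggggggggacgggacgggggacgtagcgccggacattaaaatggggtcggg
A match describes these letters only, and a window without one says nothing of the factor's binding.

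Against controls, GM501 twins had lower signals of the chaperones Hspa5 and Hyou1, of both degradation genes and of Xbp1. SAGE twins had lower Hyou1, Herpud1 and Xbp1. Sdf2l1 and Dnajb9 were not called in either medium, and no gene of the set rose over all 10 pairs. Of the 8 genes, 5 fell in GM501 twins, where 6.97% of all 18091 genes fell (13.8% called in either direction), with a median log2 difference of -0.75 against 0.114 over all genes (6.81% of which rose). In SAGE twins 3 of 8 fell, where 8.63% of all genes fell (16.1% called in either direction), with a median of -0.50 against 0.112 over all genes (7.5% of which rose). Both comparisons use the same 10 controls. Tests were limma's, with Benjamini-Hochberg adjustment over all 18091 genes and a call at an adjusted p under 0.05, and 1 log2 unit is a doubling of signal.

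**Figure D1:**
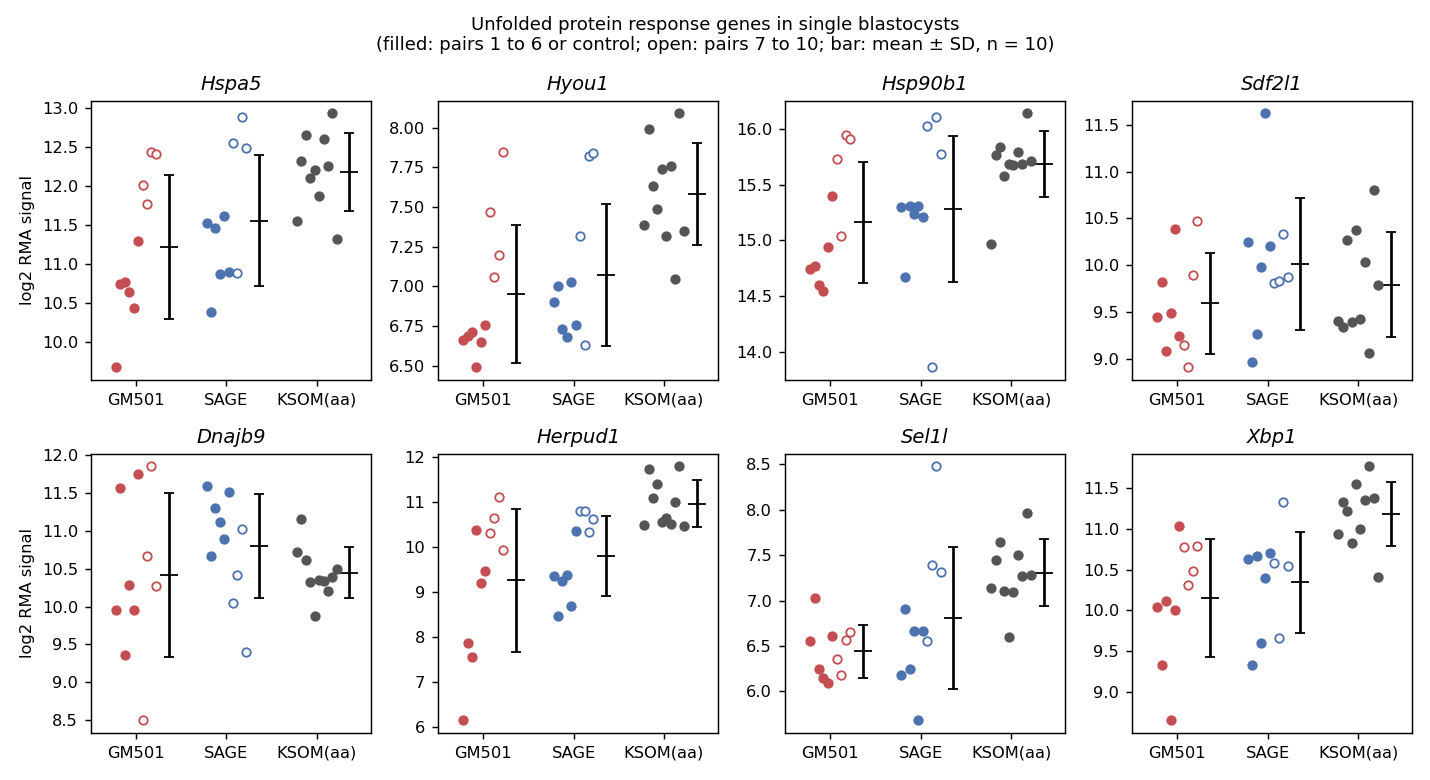
Log2 RMA signal of the 8 genes in each of 30 blastocysts, by medium (GM501 twins, SAGE twins, KSOM(aa) controls), with the mean ± SD of 10 beside the points; filled points are pairs 1 to 6 or controls, and open points pairs 7 to 10. Filled twins lie low in Hspa5, Hyou1, Hsp90b1, Herpud1 and Xbp1, while open twins overlap the controls, and Sdf2l1 and Dnajb9 overlap throughout. In Sel1l all 12 filled twins lie below the controls' median, and 3 of 4 open GM501 twins lie below the lowest control.

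Hspa5 (chromosome 2, 34772090 to 34776529, GRCm38.p6) encodes BiP, the chief chaperone of the endoplasmic reticulum, which also holds the sensors inactive. Its log2 signal had its lowest, median and highest values at 9.67, 11.03 and 12.43 in GM501 twins, at 10.38, 11.50 and 12.88 in SAGE twins, and at 11.32, 12.23 and 12.93 in controls. The groups overlapped, with 6 of 10 GM501 twins and 4 of 10 SAGE twins below the lowest control. It fell by 0.97 ± 0.31 (SE, n = 10 each) in GM501 twins, at a limma adjusted p of 0.0452. The difference of SAGE twins from controls was -0.63 ± 0.29 (limma adjusted p = 0.118). All 6 GM501 twins of pairs 1 to 6 were below every control, between 9.67 and 11.29, and all 4 of pairs 7 to 10 lay among the controls, between 11.77 and 12.43. The call in GM501 twins did not hold without 14 of the 20 arrays left out singly (adjusted p from 0.0561 to 0.0827). It held only without GM501 replicate 7, 8, 9 or 10 or control 1 or 10.

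Hyou1 (chromosome 9, 44379490 to 44392369) encodes a large chaperone that exchanges the nucleotide of BiP. Its log2 signal ran from 6.49 through a median of 6.73 to 7.85 in GM501 twins, from 6.63 through 6.95 to 7.84 in SAGE twins, and from 7.05 through 7.56 to 8.09 in controls. All 12 twins of pairs 1 to 6 were below the lowest control, at 7.03 or less. It fell by 0.63 ± 0.17 in GM501 twins (limma adjusted p = 0.0241) and by 0.51 ± 0.17 in SAGE twins (0.0477). The SAGE call held only without SAGE replicate 7, 9 or 10 or control 8, and was lost without each of the other 16 arrays (adjusted p from 0.0544 to 0.0878).

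Hsp90b1 (chromosome 10, 86690841 to 86705444) encodes GRP94, the HSP90 chaperone of the compartment. GM501 twins had log2 signals from 14.55 through a median of 14.99 to 15.95, SAGE twins from 13.86 through 15.30 to 16.11, and controls from 14.97 through 15.70 to 16.14. Control 1, at 14.97, lay below the other 9 controls, which began at 15.58. The differences from controls were -0.52 ± 0.19 in GM501 twins and -0.40 ± 0.22 in SAGE twins (limma adjusted p = 0.0634 and 0.169). In GM501 twins it passed without control 1 or without GM501 replicate 7, 9 or 10 (adjusted p from 0.0222 to 0.0438), and with arrays centred on their medians it fell by 0.76 (adjusted p = 0.0447). With array weights it passed in both media (limma adjusted p = 0.0073 in GM501 and 0.0368 in SAGE twins), where 7912 and 8876 genes were called in all. In pairs 1 to 6 it fell by 0.85 ± 0.15 in GM501 twins and 0.51 ± 0.14 in SAGE twins (limma adjusted p = 0.0002 and 0.00577). There 21.1% and 19.9% of all genes fell. In pairs 7 to 10 it differed by -0.03 ± 0.19 and -0.24 ± 0.32 and was not called.

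The 2 remaining folding genes were not called in either medium, and their differences were not tested against those of the other chaperones. Sdf2l1 (chromosome 16, 17130138 to 17132383), a partner of BiP's J-domain helpers, had log2 signals from 8.91 through a median of 9.47 to 10.47 in GM501 twins, from 8.97 through 9.93 to 11.62 in SAGE twins, and from 9.06 through 9.61 to 10.80 in controls. Its differences from controls were -0.20 ± 0.23 in GM501 twins (95% interval -0.69 to 0.29) and 0.22 ± 0.27 in SAGE twins (-0.34 to 0.79). Dnajb9 (chromosome 12, 44205897 to 44210068) encodes ERdj4, a J-domain helper of BiP that restrains IRE1. It ran from 8.50 through 10.27 to 11.85 in GM501 twins, from 9.40 through 10.96 to 11.59 in SAGE twins, and from 9.88 through 10.37 to 11.16 in controls. Twins lay on both sides of the controls, with 2 GM501 twins below the lowest and 3 above the highest. The Dnajb9 differences were -0.03 ± 0.34 in GM501 twins (95% interval -0.73 to 0.67) and 0.35 ± 0.23 in SAGE twins (-0.13 to 0.83).

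Herpud1 (chromosome 8, 94386429 to 94395371) encodes a membrane protein of the degradation complex, and it had the lowest difference of the 8 genes in both media. Its log2 signal ran from 6.15 through a median of 9.71 to 11.12 in GM501 twins, from 8.46 through 9.86 to 10.81 in SAGE twins, and from 10.47 through 10.82 to 11.80 in controls. The GM501 twins of pairs 1, 2 and 3 stood lowest, at 6.15, 7.86 and 7.56, and all 12 twins of pairs 1 to 6 were below every control. Herpud1 fell by 1.71 ± 0.49 in GM501 twins (limma adjusted p = 0.0311) and by 1.17 ± 0.30 in SAGE twins (0.0199). The GM501 call was lost without GM501 replicate 2 or 3 or control 2 or 9 (adjusted p from 0.0543 to 0.0618).

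Sel1l (chromosome 12, 91806043 to 91849157) encodes the scaffold of the HRD1 ubiquitin ligase, which passes misfolded proteins out of the compartment. It ran from 6.09 through a median of 6.45 to 7.03 in GM501 twins, from 5.68 through 6.66 to 8.48 in SAGE twins, and from 6.60 through 7.28 to 7.97 in controls. All 10 GM501 twins lay below the median of the controls, while 3 SAGE twins, of pairs 8, 9 and 10, lay above it. Sel1l fell by 0.86 ± 0.15 in GM501 twins (limma adjusted p = 0.0029), and the call held with each array left out in turn. In SAGE twins it differed by -0.50 ± 0.26 (0.155). With arrays left out singly it passed only without SAGE replicate 9, the highest at 8.48 (adjusted p = 0.0183). It also passed with array weights, at -0.81 ± 0.21 (limma adjusted p = 0.0046), where 8876 genes were called in all. SAGE twins of pairs 1 to 6 stood at -0.92 ± 0.20 (limma adjusted p = 0.00089), where 19.9% of all genes fell. Those of pairs 7 to 10 stood at 0.13 ± 0.28 (0.867).

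Xbp1 (chromosome 11, 5520641 to 5525993), whose transcript IRE1 splices, encodes a transcription factor, and the cluster's signal does not separate the spliced from the unspliced form. It ran from 8.66 through a median of 10.21 to 11.03 in GM501 twins, from 9.34 through 10.56 to 11.33 in SAGE twins, and from 10.41 through 11.27 to 11.76 in controls. None of the GM501 twins and 1 of 10 SAGE twins lay above the controls' median. Xbp1 fell by 1.02 ± 0.25 in GM501 twins (limma adjusted p = 0.0163) and by 0.83 ± 0.22 in SAGE twins (0.0221), and both calls held with each array left out in turn.

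The sets of pairs gave different counts. In pairs 1 to 6, 6 of the 8 genes fell in GM501 twins (21.1% of all genes fell and 59.4% were called) and 6 fell in SAGE twins (19.9% and 58.8%). In pairs 7 to 10, 1 gene fell in GM501 twins, Sel1l by 0.87 ± 0.19 at a limma adjusted p of 0.0382 (0.575% of all genes fell and 1.32% were called), and 0 of 8 were called in SAGE twins (0.531% fell and 0.813% called). Without pair 8, in pairs 7, 9 and 10, 0 of 8 were called in GM501 twins (0.415% of all genes) and 0 in SAGE twins (0.685%). Herpud1 differed by -2.54 ± 0.48 in GM501 and -1.72 ± 0.28 in SAGE twins of pairs 1 to 6, and by -0.46 ± 0.28 and -0.33 ± 0.26 in pairs 7 to 10. Hspa5 differed by -1.59 ± 0.25 and -1.06 ± 0.24 in pairs 1 to 6, and by -0.03 ± 0.25 and 0.02 ± 0.34 in pairs 7 to 10, in the same order of media. Hyou1 differed by -0.92 ± 0.14 and -0.73 ± 0.14 in pairs 1 to 6, and by -0.19 ± 0.19 and -0.18 ± 0.22 in pairs 7 to 10.

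Xbp1 differed by -1.31 ± 0.28 and -0.95 ± 0.23 (GM501 and SAGE) in pairs 1 to 6 and by -0.58 ± 0.20 and -0.65 ± 0.27 in pairs 7 to 10. Dnajb9 rose by 0.73 ± 0.17 in SAGE twins of pairs 1 to 6 (limma adjusted p = 0.00183; 38.9% of all genes rose), all 6 above the controls' median. Its difference there in GM501 twins was 0.03 ± 0.30. Array medians move with the sets, and the part of the array median in these differences was not tested. With each array centred on its median, 6 of 8 genes fell in GM501 twins (12.6% of all genes fell) and 3 in SAGE twins (17.3%). Whether the differences from controls differed between the sets was not tested.

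**Figure D2:**
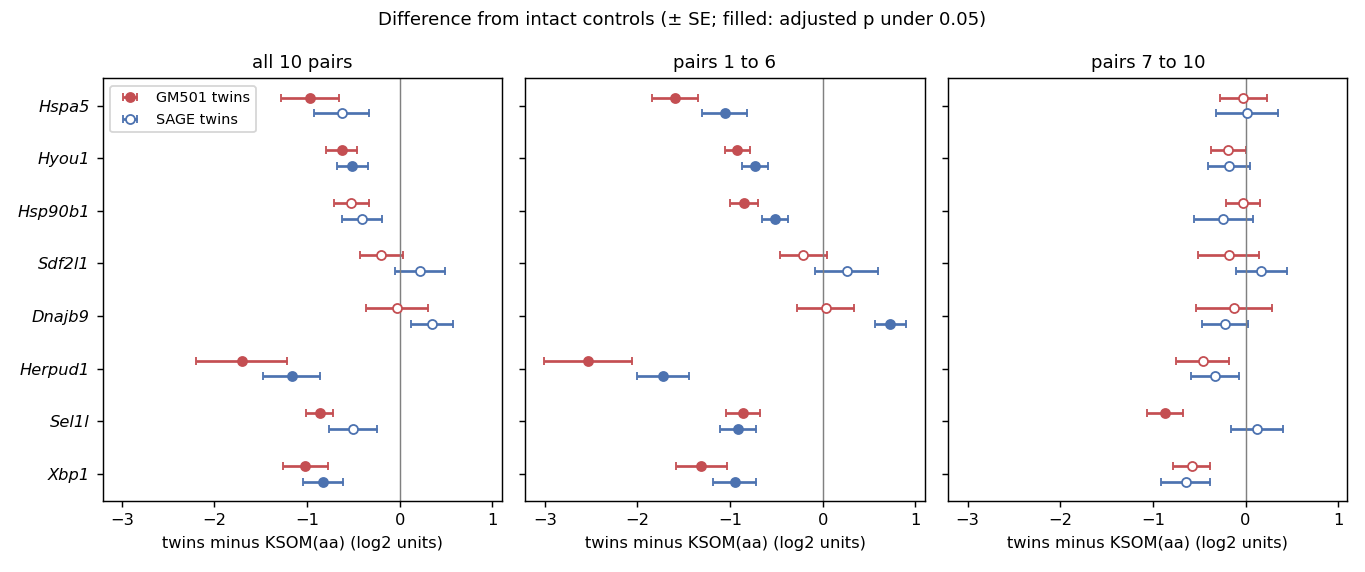
Log2 difference from KSOM(aa) controls of GM501 and SAGE twins for the 8 genes, ± SE, in all 10 pairs, pairs 1 to 6 and pairs 7 to 10; filled points have a limma adjusted p under 0.05. In pairs 7 to 10 only Sel1l in GM501 twins is filled, and Herpud1 lies farthest left in pairs 1 to 6.

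With each embryo counted once, as the mean of its co-twins, 5 of 8 genes fell against controls, where 11.4% of all genes fell (25.6% called). Hspa5 fell by 0.80 ± 0.28, Hyou1 by 0.57 ± 0.16 and Xbp1 by 0.92 ± 0.22 (SE, limma adjusted p from 0.0103 to 0.0414). Herpud1 fell by 1.44 ± 0.37 (0.0137) and Sel1l by 0.68 ± 0.18 (0.0158). No gene of the set rose (14.2% of all genes rose). In pairs 1 to 6 the count was 6 (22% of all genes fell, 64.2% called), in pairs 7 to 10 it was 0 of 8 (0.348% fell, 0.73% called), and without pair 8 of these it was 0 (0.221% called).

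The co-twins of a pair had the same genome and different media. Every one of the 8 genes had a lower mean in GM501 than in SAGE, but 0 of 8 and 0 of all 18091 genes (0% called) passed limma's test with the pair as a block, with 695 genes at an unadjusted p under 0.05. The genes' median difference was -0.35, against 0.007 over all genes, and each adjusted p was 1. The direction of single pairs was mixed, from Sdf2l1, lower in GM501 in 8 of 10 pairs, to Dnajb9, lower in 5 of 10.

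Among the chaperones, Sdf2l1 differed by -0.42 ± 0.20 (SE, 10 pairs; 95% interval -0.85 to 0.01) and Hspa5 by -0.34 ± 0.23 (-0.84 to 0.16). Hspa5 was lower in GM501 in 7 of 10 pairs, from -1.86 in pair 1 to 0.89 in pair 8. Hyou1 and Hsp90b1 differed by -0.12 ± 0.11 and -0.12 ± 0.17. The Hsp90b1 difference of pair 8, 1.18, stood away from the other 9, which lay between -0.71 and 0.19, and the SAGE twin of that pair had the lowest Hsp90b1 signal of all blastocysts, 13.86. Dnajb9 differed by -0.38 ± 0.31 and ran from -1.94 in pair 3 to 0.89 in pair 2. Herpud1 differed by -0.54 ± 0.35, lower in 7 of 10 pairs, from -3.22 in pair 1 to 1.00 in pair 4. Xbp1 differed by -0.19 ± 0.16.

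Sel1l had the opposite pattern over the sets. It differed by -0.37 ± 0.21 over all pairs, by 0.06 ± 0.14 in pairs 1 to 6 and by -0.998 ± 0.30 in pairs 7 to 10, where GM501 was lower in 4 of 4 (limma adjusted p = 0.832). The difference between the sets was -1.05 ± 0.32, with an unadjusted p of 0.00743 and an adjusted p of 0.602 by limma, and 0 of 18091 genes passed that test (1423 at an unadjusted p under 0.05). For the other 7 genes the medium difference was below 0 in pairs 1 to 6, and in pairs 7 to 10 it was below 0 for 4 and above 0 for Hsp90b1 (0.21), Dnajb9 (0.10) and Xbp1 (0.062). It was lower in pairs 1 to 6 than in pairs 7 to 10 by 0.12 for Sdf2l1 to 0.80 for Dnajb9 (adjusted p from 0.671 to 0.949). By pair, 7 of the 8 genes were lower in GM501 in pairs 1, 3 and 4, and 3 of 8 in pairs 2, 6, 8 and 10. The mean difference of the 8 genes ran from -1.07 in pair 1 to 0.17 in pair 2.

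**Figure D3:**
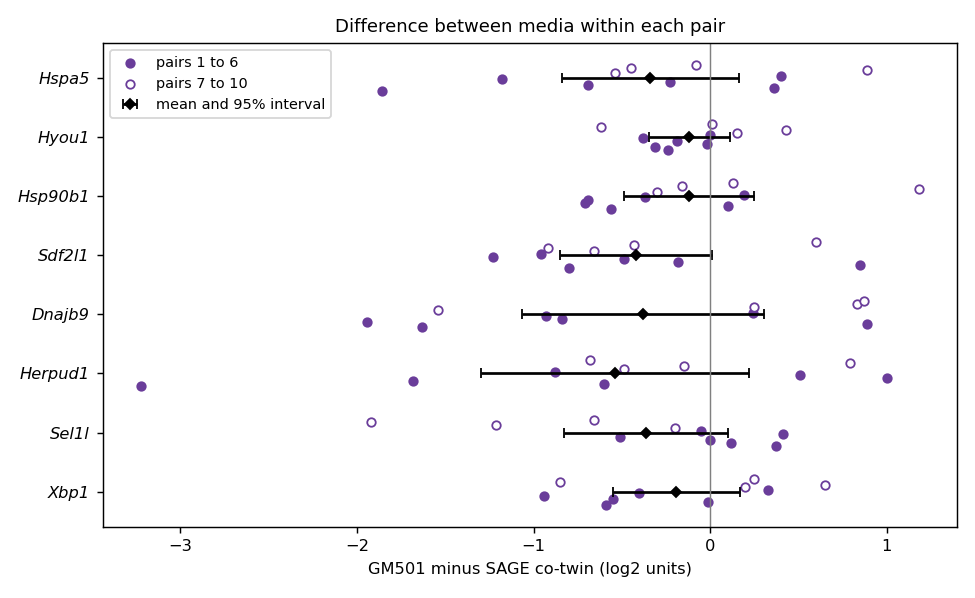
Log2 difference of the GM501 twin from its SAGE co-twin for the 8 genes, 1 point a pair (filled: pairs 1 to 6; open: pairs 7 to 10), with limma's mean and 95% interval over 10 pairs (diamonds). All 8 means lie below 0 and all 8 intervals include 0, with the Herpud1 difference of pair 1 farthest out at -3.22.

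In single blastocysts, the mean of the 8 genes relative to the mean of the controls described each embryo. Its lowest, median and highest values were -1.49, -0.76 and 0.04 in GM501 twins, -1.09, -0.46 and 0.40 in SAGE twins, and -0.32, -0.08 and 0.54 in controls. Twins of pairs 1 to 6 averaged -0.82 ± 0.38 (SD, 12 twins) and those of pairs 7 to 10 -0.24 ± 0.37 (8 twins). The lowest blastocyst, the GM501 twin of pair 1, also had the highest array median, 5.28, and the lowest SAGE twin, of pair 2, had the highest median of its medium, 5.22. The SAGE twin of pair 8, with a median of 5.12, had a mean of -0.71, the lowest of its set. The order did not follow the array median throughout. The SAGE twin of pair 1, with a median of 5.03, had a mean of -0.42, and the GM501 twin of pair 7, with a median of 4.65, had one of -0.60. Whether the array median or the embryo set these levels was not tested.

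**Figure D4:**
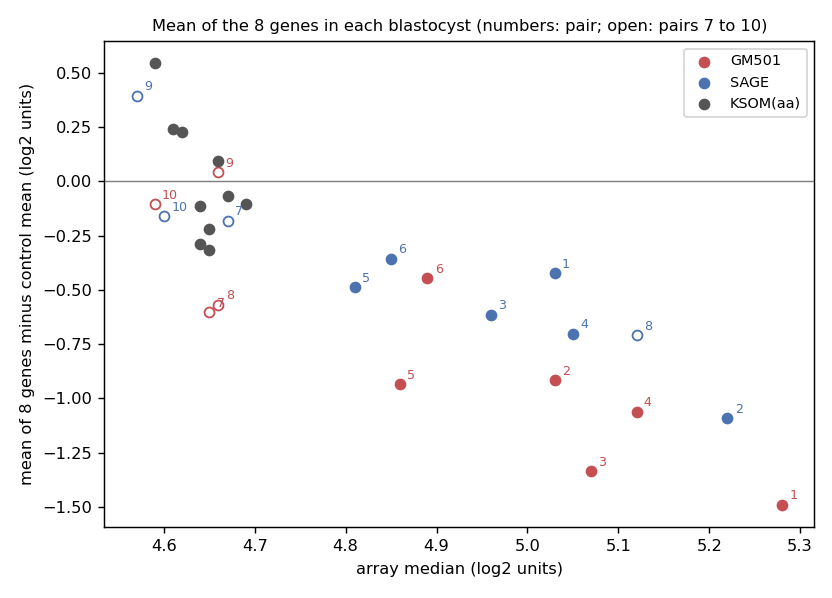
Mean log2 signal of the 8 genes minus the mean of the controls (vertical) against the array's median log2 signal (horizontal) in 30 blastocysts, numbered by pair and open for pairs 7 to 10. Controls lie between 4.59 and 4.69 on the horizontal axis, and twins between 4.57 and 5.28, with the GM501 twin of pair 1 lowest at -1.49 and its SAGE co-twin, at 5.03, at -0.42.

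Over all pairs, co-twins were more alike than twins of different pairs for some of these genes. In limma's F test for the embryo of origin, with medium in the model, 4 of 8 passed, where 26.4% of all genes did. These were Hyou1 (adjusted p = 0.0170), Xbp1 (0.0231), Hspa5 (0.0366) and Herpud1 (0.0478). Within pairs 1 to 6 and within pairs 7 to 10, 0 of 8 passed (0.243% and 0.0663% of all genes). Co-twins also share their set of pairs, so the test over all pairs does not separate the embryo from the set.

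Over all pairs, the spread among twins relative to controls was near that of all genes. The SD of GM501 twins exceeded that of controls in 6 of 8 genes (87.1% of all genes) and that of SAGE twins in 8 of 8 (87.6%), with median ratios of 1.84 and 1.69, beside 1.78 and 1.83 over all genes. Within pairs 1 to 6 the median ratios were 1.06 and 1.13 (1.38 and 1.33 over all genes), and within pairs 7 to 10 they were 1.02 and 1.78 (1.15 and 1.51). The ratio was largest for Dnajb9 (3.19) and Herpud1 (3.07) in GM501 twins. For Sel1l the SD was 0.292 among GM501 twins, 0.781 among SAGE twins and 0.369 among controls.

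Among 62 other genes of the pathway, 58 were measured alone on a cluster. In GM501 twins 11 fell and 0 rose, where 6.97% of all genes fell and 6.81% rose, with a median of -0.35 against 0.114 over all genes. In SAGE twins 11 fell and 1 rose, where 8.63% of all genes fell and 7.5% rose, with a median of -0.29 against 0.112. With each embryo counted once 18 fell (11.4% of all genes) and 1 rose (14.2%), the isomerase gene Fkbp2, by 0.44 ± 0.15. Between media 0 of 58 passed (0% of all genes). In pairs 7 to 10 alone, 0 of 58 passed in GM501 twins, 2 in SAGE twins and 1 over pair means, Ddit3. Of all genes, 1.32%, 0.813% and 0.73% were called there, in the same order. The 2 in SAGE twins were Cnpy2, a folding cofactor, which fell by 0.82 ± 0.16, and the peroxiredoxin Prdx4, which fell by 0.67 ± 0.14. Without pair 8 of these, 0 of 58 passed in GM501 twins, in SAGE twins or over pair means (0.415%, 0.685% and 0.221% of all genes). Cnpy2 and Prdx4 then stood at -0.69 ± 0.16 and -0.51 ± 0.12 in SAGE twins (limma adjusted p = 0.0595 for each). In pairs 1 to 6 alone, 32 fell and 5 rose in GM501 twins, where 21.1% of all genes fell and 38.3% rose. There 27 fell and 10 rose in SAGE twins, where 19.9% fell and 38.9% rose.

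Of the sensors and regulators, 3 of 10 measured genes fell in GM501 twins and 4 in SAGE twins (6.97% and 8.63% of all genes fell). All 10 differences were below 0 in both, with medians of -0.52 and -0.66, against 0.114 and 0.112 over all genes. The share of all genes below 0 was not counted. In pairs 7 to 10, 5 of the 10 differences were below 0 in GM501 twins and 6 in SAGE twins. Their medians there were -0.019 and -0.043, near the -0.013 and -0.0295 of all genes. In either medium 0 of 10 were called (1.32% and 0.813% of all genes). Ern1, which encodes IRE1, differed by -0.27 ± 0.18 in GM501 twins and -0.33 ± 0.16 in SAGE twins. Eif2ak3, which encodes PERK, differed by -0.48 ± 0.19 and -0.46 ± 0.20, and Atf4 by -0.56 ± 0.23 and -0.51 ± 0.21. None of these passed over all pairs. In pairs 1 to 6, 9 of the 10 genes fell in GM501 twins and 9 in SAGE twins (21.1% and 19.9% of all genes fell). Among them, Ern1 fell by 0.47 ± 0.19 and 0.54 ± 0.17, and Eif2ak3 by 0.75 ± 0.19 and 0.76 ± 0.18. In pairs 1 to 6 Atf4 fell by 1.05 ± 0.14 in GM501 twins and by 0.81 ± 0.21 in SAGE twins, and in pairs 7 to 10 it differed by 0.19 ± 0.19 and -0.07 ± 0.17. Atf6 fell by 0.83 ± 0.15 in SAGE twins (limma adjusted p = 0.0062) and differed by -0.68 ± 0.27 in GM501 twins (0.0828). Ddit3, which encodes CHOP, a pro-death factor downstream of ATF4, fell by 1.44 ± 0.32 in GM501 twins (0.0119). It differed by -0.97 ± 0.45 in SAGE twins (adjusted p = 0.12). In pair means of pairs 7 to 10 Ddit3 fell by 1.59 ± 0.30 (0.0271), and without pair 8 it differed by -1.54 ± 0.34 (0.0902). Ppp1r15a and Ppp1r15b, whose products bring phosphatase to eIF2α and end PERK's block on translation, fell by 0.76 ± 0.19 and 0.92 ± 0.26 in GM501 twins and by 0.72 ± 0.21 and 0.67 ± 0.21 in SAGE twins.

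The counts of the other roles stand beside the same shares of all genes that fell, 6.97% in GM501 and 8.63% in SAGE twins. Among the chaperones, 2 of 13 fell in each medium. The prolyl isomerase Ppib fell by 0.82 ± 0.18 in GM501 twins and 0.74 ± 0.15 in SAGE twins. Dnajc3, which holds back PERK, fell by 0.52 ± 0.17 in GM501 twins, and the reductase Dnajc10 differed by -1.56 ± 0.44 in SAGE twins, also a fall. Of 9 oxidoreductases, 3 fell in GM501 twins and 2 in SAGE twins, among them Txndc5 by 0.94 ± 0.24 and 0.95 ± 0.26. P4hb, the protein disulfide isomerase, fell by 0.79 ± 0.24 in GM501 twins, and Pdia3 by 0.44 ± 0.13 in SAGE twins. Ero1a, the oxidase that drives disulfide formation, rose by 0.81 ± 0.26 in SAGE twins (limma adjusted p = 0.0413). Within pairs its difference of GM501 from SAGE was -1.14 ± 0.30, with an adjusted p of 0.915. Of 14 degradation genes 1 fell in each medium, a share near that of all genes. It was Vcp, the segregase that pulls proteins out of the membrane, which fell by 0.94 ± 0.30 in GM501 and 1.08 ± 0.31 in SAGE twins. With each embryo counted once, 4 of the 14 fell (11.4% of all genes). In pairs 1 to 6, 8 fell in GM501 twins and 6 in SAGE twins (21.1% and 19.9% of all genes), and 1 rose in each (38.3% and 38.9%). In pairs 7 to 10, 0 were called in either medium (1.32% and 0.813% of all genes). Of 12 translocation and secretion genes 2 fell in each medium over all pairs. Ssr2 fell by 0.59 ± 0.17 and 0.82 ± 0.23 (GM501 and SAGE), Ssr3 by 0.57 ± 0.15 in GM501 twins, and the coat gene Sec23b by 1.15 ± 0.35 in SAGE twins.

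**Figure D5:**
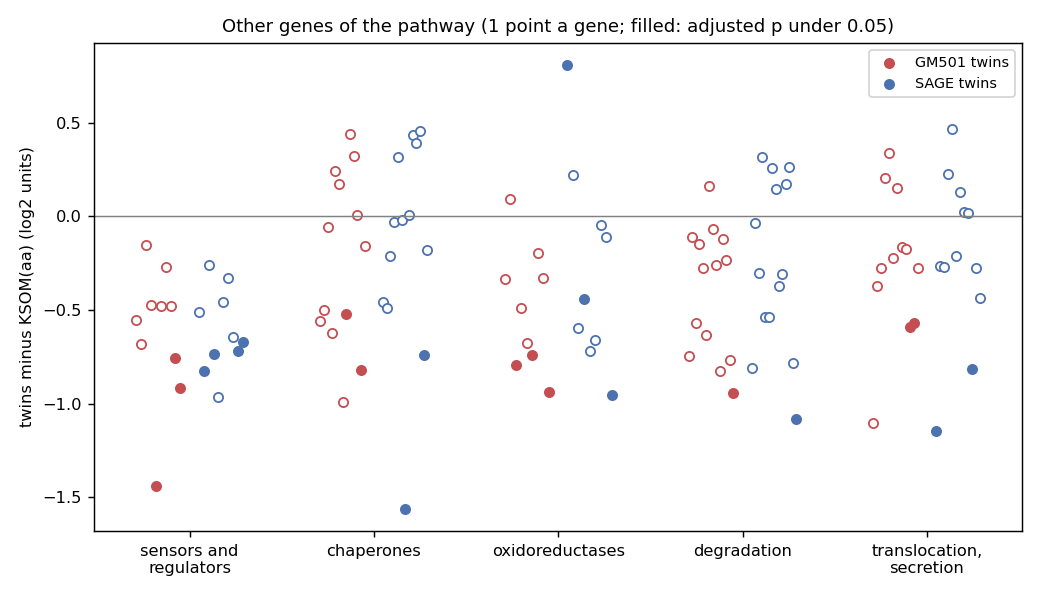
Log2 difference from KSOM(aa) controls of 58 other pathway genes by role, in GM501 and SAGE twins, 1 point a gene over 10 pairs; filled points have a limma adjusted p under 0.05. Filled points lie below 0, with the exception of Ero1a at 0.81 in SAGE twins.

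Over the 10 within-pair differences, the 5 genes outside the set most like the mean of the 8 genes were Ash2l (Pearson r = 0.97), Dph5 (0.96), Atp6v1g1 (0.94), Tns3 (0.94) and Gspt1 (0.93). They were the highest of all genes tested, the points share the same 20 arrays, and r is given as a description. The correlation of single genes of the set with that mean, of which each is a part, ran from -0.36 for Sel1l to 0.90 for Hspa5.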

How the data were processed

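RNA of 30 single blastocysts was measured on Affymetrix arrays. The deposited values are log2 signals of 65956 transcript clusters, made by the authors with RMA in Affymetrix Expression Console on mm10, per the submitters' processing notes, with versions not given in the sources used here. Background subtraction, normalization between arrays and summary of probes are parts of RMA, so a signal is relative within its cluster. The log base was inferred from the range of values, 2.2 to 19.3, and from RMA's own scale. Precision is limited by the number of arrays.

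Samples were grouped by title. Clusters were named through the listed genes: 30604 of 32750 had 1 symbol, 2146 had several and were not used, and 827 symbols were updated. Per gene the cluster with the highest mean was used, and the filter on low signals kept 18091 of 30142 genes, those in the upper 60% by mean. Tests were two-sided, by limma 3.58.1 under R 4.3.3 (lmFit and eBayes), adjusted by Benjamini-Hochberg over all genes kept. SE are moderated. The fits were tested on simulated data with known differences.

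Co-twins share an embryo per the labels, so the pair was a block between media. Their deviations from group means correlated in every pair across genes, r from 0.163 to 0.696, and 7 of 10 GM501 twins correlated best with their own co-twin. Array medians also differ between the sets of pairs, and their part in these r was not tested. GM501 and SAGE twins were each set against the 10 controls, on 20 arrays, and pair means likewise. Matings and culture days are not counted in the labels, and p-values therefore reflect only how far these blastocysts vary.

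The members, the gene lists, the sets of pairs and the tests were chosen with earlier results of these data known. The rule for named genes took all members, 5 sensor genes whatever their p, up to 2 called pathway genes per role in each comparison, and the 5 genes most like the members' mean. Ppp1r15b, Ero1a, Fkbp2, Cnpy2 and Prdx4 were named after their values were seen. Of 62 pathway genes 58 were measured. The other 4 were not analysed here. Sequences are RefSeq's (GRCm38.p6).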

Additional observations from a re-analysis of the deposited data

Results flagged for a closer look

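Of 35 sets of 10 values of the 8 genes checked for 1 far value, 3 held one, where chance gives about 1 in 20. Hsp90b1 in control 1, at a log2 signal of 14.97, lay below the other 9 controls. The Hsp90b1 difference between GM501 and SAGE in pair 8, 1.18, lay above those of the other 9 pairs. Sdf2l1 in the SAGE twin of pair 5, at 11.62, lay above the other 9 SAGE twins.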

How the results depend on the processing

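Counts of the 8 genes called are given by setting. In GM501 twins against controls the count of 5 moved to 1 with pairs 7 to 10 alone, to 0 without pair 8 of these, and ran from 3 to 6 with single arrays left out (3 without GM501 replicate 2 or 3 or control 2 or 9). In SAGE twins the count of 3 moved to 7 with array weights and in pairs 1 to 6. It was 0 with pairs 7 to 10 alone, 0 without pair 8 of these, and ran from 2 to 5 with single arrays left out (5 without SAGE replicate 9). For pair means the count of 5 moved to 0 with pairs 7 to 10 alone, 0 without pair 8 of these, and ran from 4 to 6. The embryo of origin count of 4 moved to 0 within either set. In pairs 7, 9 and 10, of the genes called over all pairs, Hspa5 turned to 0.10 in GM501 twins and 0.28 in pair means, and Hyou1 to 0.079 in SAGE twins and 0.0023 in pair means. Of those not called, Hspa5 stood at 0.46 in SAGE twins and Hsp90b1 at 0.18, 0.29 and 0.23 (GM501, SAGE, pair means). These fits hold fewer arrays, and the cause of the changes was not tested. Between media the count was 0 under every setting run, also without the pair as a block (225 genes at an unadjusted p under 0.05), and 0 with each pair left out. Genes called in all were 2493, 2918 and 4628 (GM501, SAGE, pair means), 7912, 8876 and 10799 with array weights, 5757, 7911 and 12409 with no filter, and 10743, 10643 and 11606 in pairs 1 to 6. They were 239, 147 and 132 in pairs 7 to 10, and 75, 124 and 40 in pairs 7, 9 and 10. With single arrays left out they ran from 1128 to 5272, from 1312 to 6307 and from 2445 to 7264. Centring arrays on their medians moved the median of all genes from 0.114 to -0.125 in GM501 twins and from 0.112 to -0.134 in SAGE twins, with members' medians of -0.98 and -0.75.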
